A study of Mus musculus with 14 samples.

Results

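The 45 genes described here carry DNA replication and cell division. They were chosen by name from their textbook roles and were split into 26 S phase members and 19 mitotic members. All 45 were found among the 37680 genes of the count table, and all 45 were among the 15127 genes with enough counts to be tested. The libraries hold poly(A)-enriched RNA from colonic crypt epithelium that was separated from the underlying mesenchyme of adult mice by EDTA chelation. The mice had a C57/BL6-enriched background, and age and sex were matched across treatments. There were 4 WT and 4 Smad4 knockout libraries from mice on water, and 3 WT and 3 knockout libraries from mice given 2.5% dextran sulfate sodium (DSS, which injures the colonic epithelium) in drinking water for 3 d. The knockout (KO below) was made with floxed Smad4 alleles and a tamoxifen-inducible Cre under the Villin promoter, which is active along the intestinal epithelium. The methods place the Cre transgene in both mutants and controls, and which WT mice received tamoxifen was not given in the sources used here. The labels number the replicates without saying that each came from a separate mouse, so the p-values measure the spread between these libraries.

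Cells that divide first license replication origins in G1, when ORC, Cdc6 and Cdt1 load the Mcm2-7 helicase on DNA. At the start of S phase, cyclin E with its kinase helps to fire those origins, while E2F acts as a transcription factor. Polymerases then copy the DNA and the nucleotide enzymes supply the dNTPs. Mitotic genes are transcribed later, in G2 and M, when cyclin B with Cdk1, the Aurora and Polo kinases and the spindle motors condense and separate the chromosomes. In the colon this cycle runs in the lower part of the crypt, and cells leave it as they move upward and differentiate.

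The promoters of the members were compared at the level of short sequence words, because the replication and mitotic genes are known to be controlled through different promoter elements. The windows ran from 250 bases before to 50 bases after the transcription start (RefSeq, GRCm38.p6), and 22 S phase members and 15 mitotic members were matched to at least 1 window. The words searched on both strands were TTTGGCGC, TTTCCCGC, TTTCGCGC and TTTGCCGC for E2F, TTTGAA for the cell cycle homology region (CHR) of late cell cycle genes, and CCAAT. An E2F word was present in 40.9% of the matched S phase genes, in 6.67% of the matched mitotic genes and in 2.60% of all 27025 genes with a window. The CHR word was present in 13.6% of the S phase genes, 66.7% of the mitotic genes and 20.2% of all genes. CCAAT was present in 59.1%, 86.7% and 41.1%, respectively. The words can overlap each other, and a match describes letters in a window and not a bound site.

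The stretches below lie before the start site, are given 5′ to 3′ on the strand of the gene, and carry the words in capitals (ATTGG and TTCAAA are the other-strand forms of CCAAT and the CHR word). Prim1 and Bub1 are shown because they were among the members with the lowest p in WT DSS against WT water. Mcm5, Mcm6, Cdk1 and Kif11 were chosen after the search, to show windows with E2F words and windows with CHR words. The Cdk1 window also holds the E2F word TTTCGCGC, at position -131 from the start and outside the stretch shown. Cdk1 is the 1 matched mitotic gene with an E2F word. In Mcm5 and Mcm6 a pair of E2F words on opposite strands shares bases.
Prim1 (S phase, chr10:128015179-128015214, plus strand): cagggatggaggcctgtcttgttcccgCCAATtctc
Mcm5 (S phase, chr8:75109332-75109391, plus strand): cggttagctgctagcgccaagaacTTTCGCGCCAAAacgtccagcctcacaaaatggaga
Mcm6 (S phase, chr1:128359737-128359823, minus strand): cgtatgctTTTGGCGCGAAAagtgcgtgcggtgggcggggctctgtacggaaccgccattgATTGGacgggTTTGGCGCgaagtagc
Bub1 (mitotic, chr2:127831883-127831941, minus strand): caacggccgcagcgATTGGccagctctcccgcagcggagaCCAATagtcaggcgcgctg
Cdk1 (mitotic, chr10:69352914-69353000, minus strand): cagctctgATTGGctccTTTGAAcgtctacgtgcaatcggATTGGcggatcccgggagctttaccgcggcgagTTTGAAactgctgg
Kif11 (mitotic, chr19:37376323-37376381, plus strand): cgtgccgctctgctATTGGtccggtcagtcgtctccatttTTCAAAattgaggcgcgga

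Total counts ran from 12882827 to 26087231 per library. The share of counts on mitochondrial genes was 30.6% in WT water replicate 3, 32.8% in WT water replicate 4 and 21.4% in KO water replicate 4, and it was 4.05% to 8.23% in the other libraries. Smad4 was at 118 to 182 CPM (counts scaled to library size, with TMM factors) in the WT libraries and at 35.1 to 46.8 CPM in the KO libraries, except for the library labelled KO water replicate 1, where it was at 158 CPM. That library goes against its label, and the counts in each comparison and the named fold changes that rest on it are also given without it. The 9 epithelial markers summed to 12238 to 19285 CPM in every library, the 5 myeloid markers to 4.38 to 14.4 CPM, the 3 smooth muscle markers to 0 to 5.77 CPM and the 3 endothelial markers to 0.206 to 0.855 CPM. KO water replicate 4 held the highest sums of the T and NK cell markers (40.3 CPM, others 7.74 to 31.4), of the B and plasma cell markers (24.3 CPM, others 1.56 to 11.5) and of the fibroblast markers (24.8 CPM, others 0.276 to 13.0). In that library 6 of 7 T and NK cell markers, 5 of 5 B and plasma cell markers and 6 of 6 fibroblast markers were above 0 (Cd4 was at 0). These are bulk samples, so fewer cycling cells and less RNA of a gene per cycling cell cannot be told apart.

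The 45 members were read at very different depths. Mean levels per kilobase of annotated exon ran from 0.867 CPM per kb for Fen1, the flap endonuclease of the lagging strand, to 68.4 CPM per kb for Plk1, the Polo kinase of mitotic entry. Fen1 had between 1 and 100 raw counts in a library. In the mm9 gene models 14 members shared exonic bases with another gene, and the share was over 20% in 3 of them, namely Fen1 (84.2%), Gins2 (67.3%) and Kif20a (32.3%), each overlapped on the opposite strand. The strand setting of the counting was not given in the sources used here, so the counts of these 3 genes may hold reads of the neighbour.

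**Figure D1:**
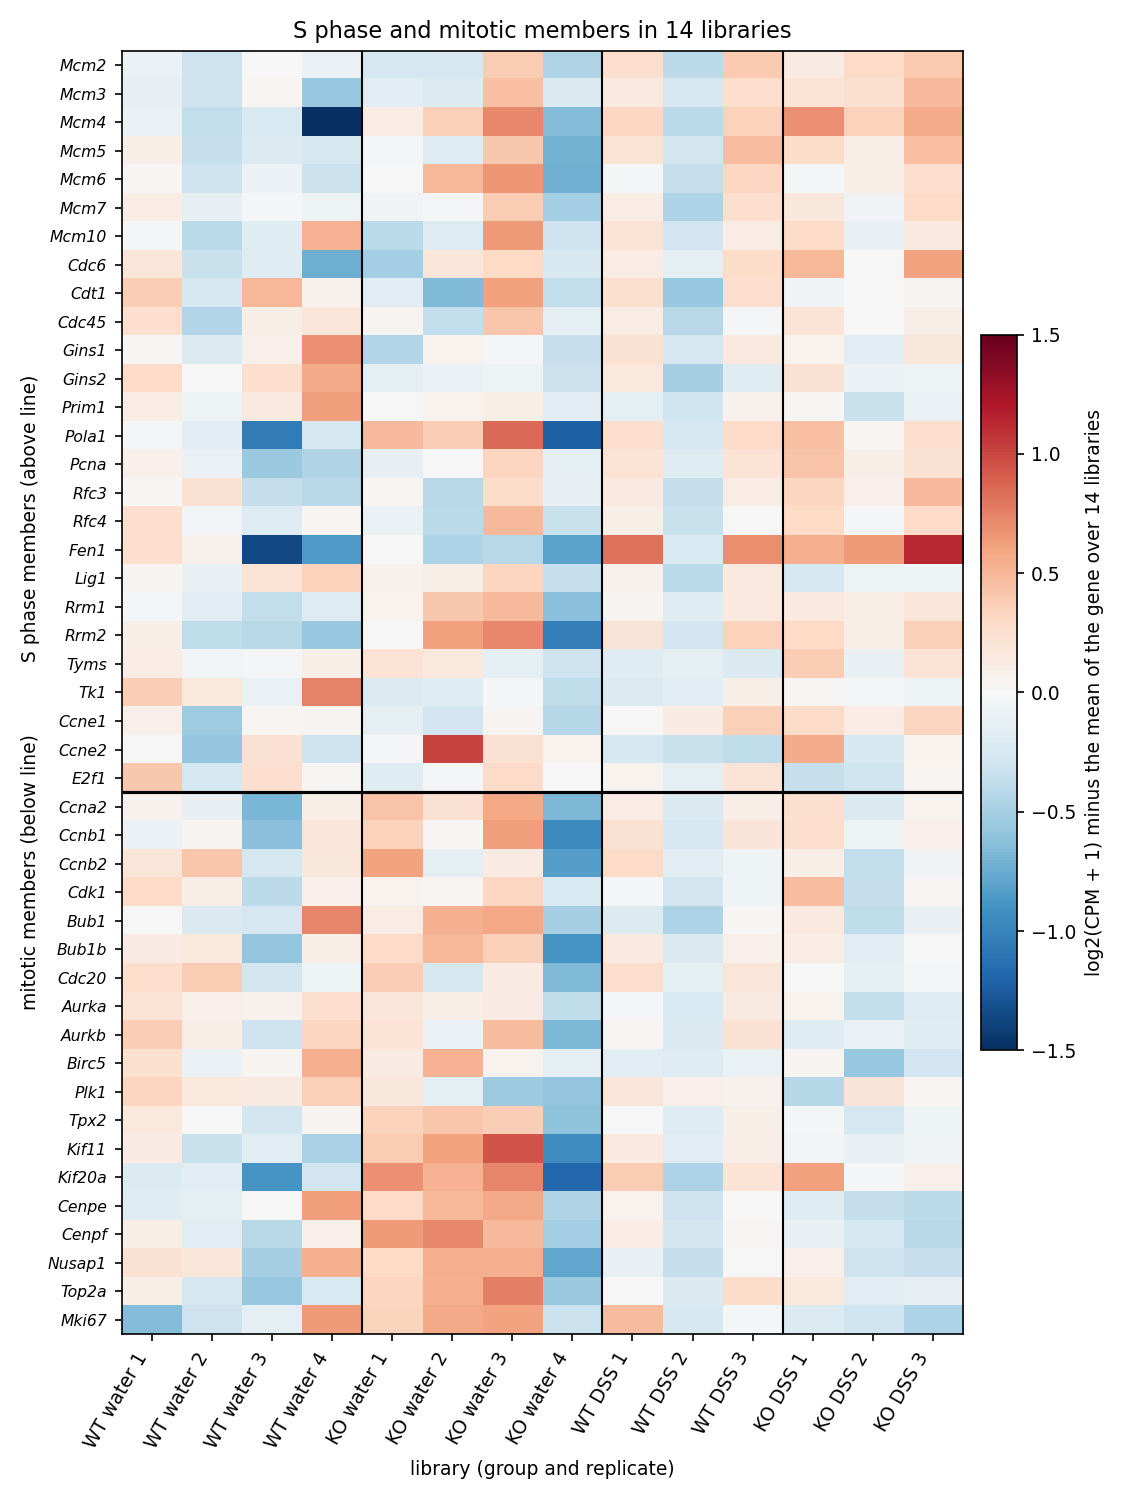
Each row is a member and each column a library. Colour gives log2(CPM + 1) minus the mean of the gene over the 14 libraries, from blue (lower) to red (higher), with values beyond 1.5 in either direction drawn at the end colours. Of the 19 mitotic members, 19, 15 and 18 were above their own mean in the first 3 KO water columns and 0 in KO water replicate 4.

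The level of each group of genes in a library was summarised as the mean over the members of log2(CPM + 1). For the S phase members this level was 4.56 ± 0.14 (SD, n = 4) in WT water, 4.60 ± 0.30 (n = 4) in KO water, 4.65 ± 0.26 (n = 3) in WT DSS and 4.81 ± 0.13 (n = 3) in KO DSS. The libraries of all 4 groups overlapped. For the mitotic members it was 5.61 ± 0.22 in WT water, 5.72 ± 0.49 in KO water, 5.60 ± 0.19 in WT DSS and 5.52 ± 0.15 in KO DSS. Here too the groups overlapped, and KO water was the widest. Without the library labelled KO water replicate 1 the KO water means were 4.61 ± 0.37 for S phase and 5.65 ± 0.57 for mitosis (n = 3), and without KO water replicate 4 they were 4.73 ± 0.21 and 5.96 ± 0.06.

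Single libraries stood out within some of the groups across many members at once. KO water replicate 4 held the lowest value of its group in 17 of 26 S phase members as well as in all 19 mitotic members, and KO water replicate 3 held the highest value in 22 of 26 S phase members. In WT DSS, replicate 2 was lowest in 22 of 26 S phase and 18 of 19 mitotic members. The members therefore shared their spread within groups, and their number does not add independent evidence. The median coefficient of variation of the mitotic members was 32.6% in KO water, beside 26.2% over all tested genes, and 20.4% in WT water, beside 22.6% over all tested genes. After DSS it was 13.5% in WT, beside 12.2% over all tested genes, and 13.0% in KO, beside 12.5% over all tested genes.

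The mitotic level minus the S phase level differed less between libraries of a group than either level after DSS. It was 0.95, 1.03 and 0.87 in the 3 WT DSS libraries and 0.81, 0.72 and 0.59 in the 3 KO DSS libraries. Every KO DSS library was below every WT DSS library. On water the values were 0.96, 1.17, 0.79 and 1.28 in WT and 1.37, 1.28, 1.06 and 0.77 in KO, and these overlapped. No test was made on this difference, since the members were chosen with earlier results known.

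**Figure D2:**
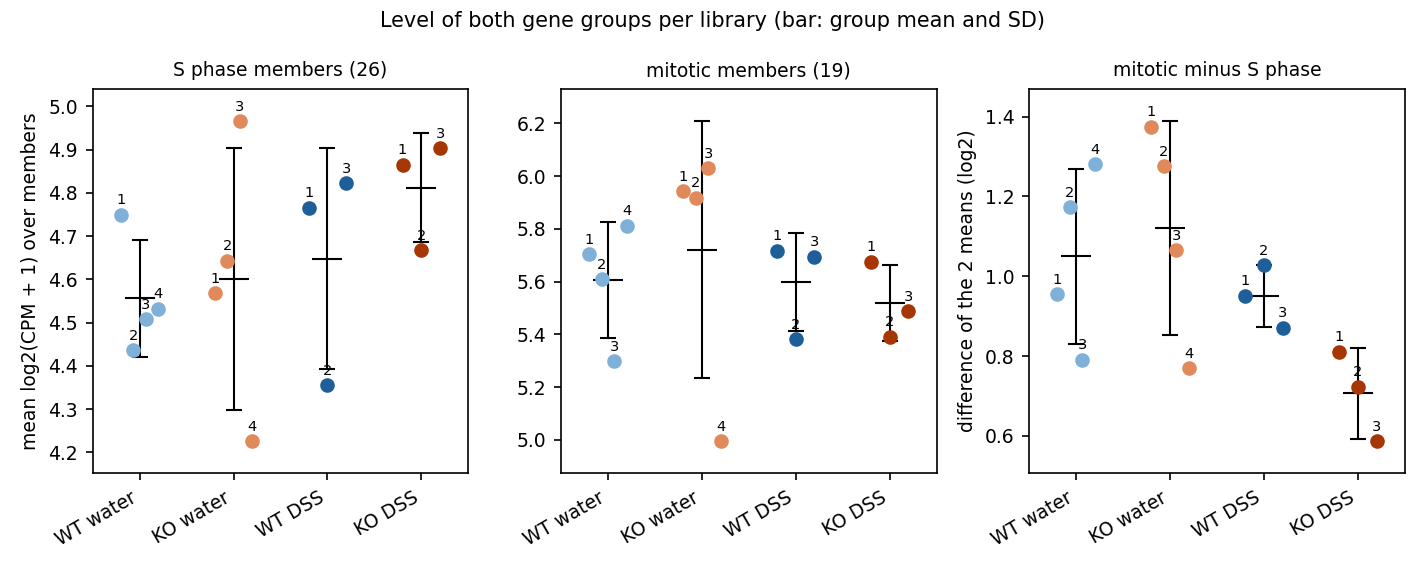
Points are libraries, numbered by replicate, and bars give the group mean and SD. The y axes give the mean log2(CPM + 1) over the 26 S phase members (left) and the 19 mitotic members (middle), and the difference of both (right). KO water replicate 4 lies at 4.99 in the middle panel, below the 5.92 to 6.03 of the other KO water libraries.

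A set of 6 members that mark proliferating cells was followed in every library. Pcna, the sliding clamp of the replication fork, was at 115, 102, 73.4 and 79.1 CPM in WT water and at 99.4, 109, 137 and 97.8 CPM in KO water. After DSS it was at 127, 96.0 and 126 CPM in WT and at 146, 115 and 128 CPM in KO. Every KO DSS library was above every WT water library in Pcna, and the other pairs of groups overlapped. Mcm2, a subunit of the replicative helicase, was at 41.1, 35.3, 43.9 and 41.2 CPM in WT water and at 36.6, 36.6, 57.7 and 31.9 CPM in KO water. After DSS it was at 52.9, 33.4 and 58.2 CPM in WT and at 47.8, 54.0 and 58.0 CPM in KO, so that every KO DSS library was above every WT water library. Rrm2, the small subunit of ribonucleotide reductase, was at 29.1, 20.7, 20.2 and 18.2 CPM in WT water and at 27.3, 42.6, 45.6 and 12.8 CPM in KO water. KO water replicates 2 and 3 were above every WT water library in Rrm2, and KO water replicate 4 was below all of them. After DSS Rrm2 was at 31.5, 22.2 and 34.9 CPM in WT and at 33.9, 29.2 and 35.3 CPM in KO.

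The mitotic members of this set also differed among the water libraries. Mki67, which codes for the proliferation marker Ki-67 at the surface of mitotic chromosomes, was at 127, 161, 182 and 310 CPM in WT water and at 251, 298, 305 and 159 CPM in KO water. After DSS it was at 279, 168 and 198 CPM in WT and at 173, 163 and 145 CPM in KO. WT water replicate 4 was the highest of all 14 libraries, and the SD was smallest in KO DSS (14.4 CPM, n = 3). Top2a, the topoisomerase that untangles sister chromatids, was at 168, 132, 106 and 134 CPM in WT water and at 198, 229, 266 and 107 CPM in KO water. Replicates 2 and 3 and the library labelled KO water replicate 1 were above every WT water library. After DSS Top2a was at 157, 136 and 190 CPM in WT and at 177, 140 and 145 CPM in KO. Cdk1, the kinase that drives mitotic entry, was at 54.9, 48.1, 33.6 and 47.3 CPM in WT water and at 46.5, 45.1, 55.5 and 38.0 CPM in KO water. After DSS it was at 43.9, 36.8 and 42.6 CPM in WT and at 61.8, 34.7 and 45.1 CPM in KO, and all groups overlapped.

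**Figure D3:**
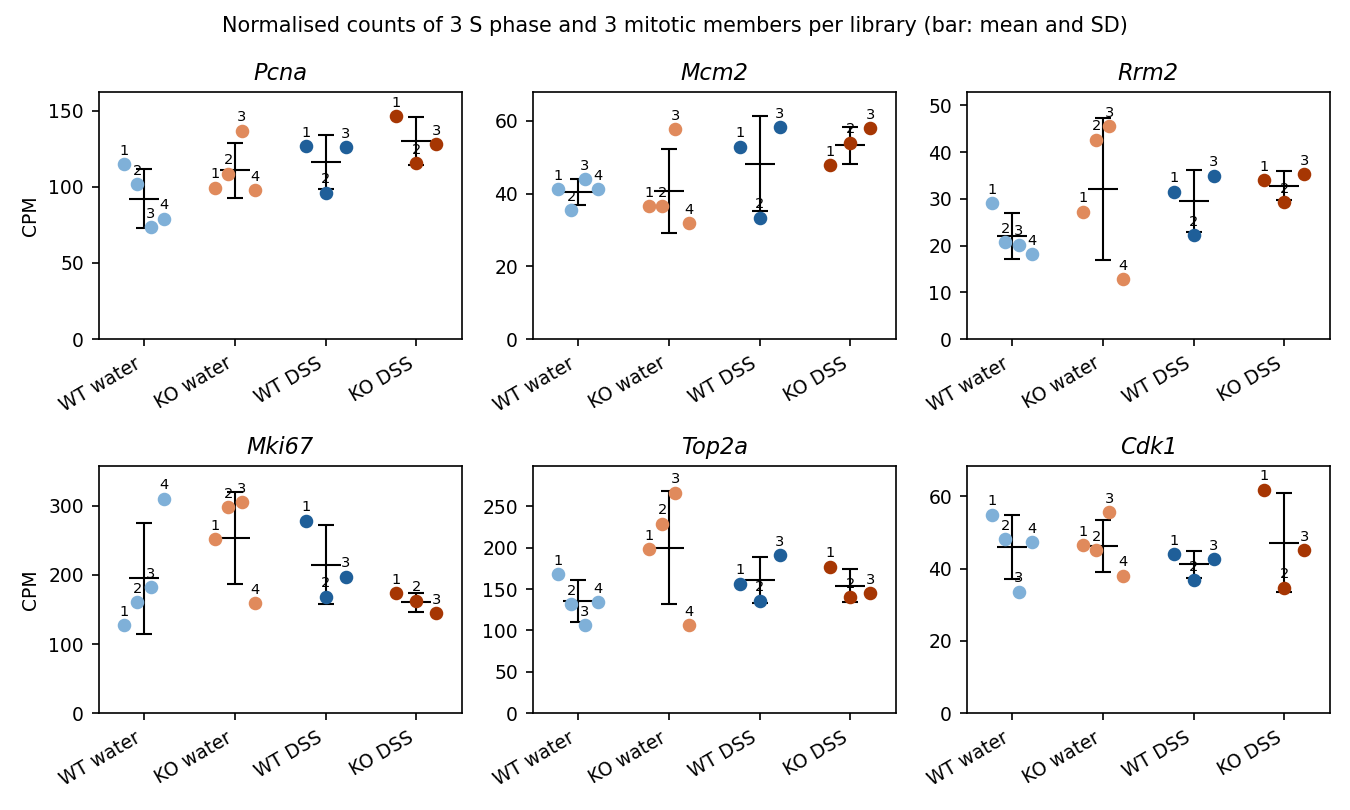
CPM of 3 S phase members (top) and 3 mitotic members (bottom) in each library, numbered by replicate, with group mean and SD as bars; the y axes start at 0. In Top2a, KO water replicates 1 to 3 lie at 198 to 266 CPM and KO water replicate 4 at 107 CPM, next to the WT water libraries at 106 to 168 CPM.

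DSS in WT epithelium changed no S phase or mitotic member past the test. The comparison asked how the division genes stood after 3 d of DSS when Smad4 was intact. Of the S phase members 15 were fitted higher and 11 lower in the DSS libraries (median log2 fold change 0.06), and of the mitotic members 9 were fitted higher and 10 lower (median -0.02). The median over all tested genes was -0.01. The quasi-likelihood test of edgeR called 0 of 15127 genes in this comparison (0%), so that the absence of members among its calls says little; 3174 genes and 2 of the 45 members had an unadjusted p under 0.05. DESeq2 over all 14 libraries called 403 genes higher and 448 lower, and none of them was a member.

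Among the licensing genes 8 of 9 were fitted higher in WT DSS (median 0.26), and all 3 helicase activation genes were fitted lower (median -0.15). The S phase members with the lowest p were Tk1, Gins2 and Prim1. Tk1, the thymidine kinase of the nucleotide salvage pathway, was at 64.7, 55.8, 46.4 and 84.3 CPM in WT water and at 43.1, 44.2 and 52.8 CPM in WT DSS. The ranges overlapped through WT water replicate 3. The log2 fold change was -0.42 (SE 0.17, edgeR adjusted p = 0.185). Gins2, a subunit of the GINS complex of the active helicase, was at 13.1 to 19.998 CPM in WT water and 9.0 to 14.7 CPM in WT DSS (log2 fold change -0.47, SE 0.20, edgeR adjusted p = 0.195). Prim1, the catalytic primase subunit, was at 19.1 to 31.8 CPM in WT water and 16.2 to 21.2 CPM in WT DSS (log2 fold change -0.35, SE 0.18, edgeR adjusted p = 0.272).

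All 5 mitotic kinases and partners were fitted lower in WT DSS (median -0.14). Birc5, the survivin subunit of the chromosomal passenger complex, was at 55.5, 44.1, 48.6 and 69.3 CPM in WT water and at 41.8, 41.0 and 43.8 CPM in WT DSS. The groups did not overlap, and the log2 fold change was -0.36 (SE 0.19, edgeR adjusted p = 0.281). Kif20a, a kinesin of cytokinesis, was at 8.63 to 14.9 CPM in WT water and 11.9 to 22.2 CPM in WT DSS (log2 fold change 0.47, SE 0.37, edgeR adjusted p = 0.476), and Bub1, a kinase of the spindle checkpoint, was at 15.9 to 32.5 CPM and 13.6 to 19.3 CPM (log2 fold change -0.34, SE 0.29, edgeR adjusted p = 0.508). Groups that did not overlap were seen in 0 members in the higher direction, beside 12.8% of all genes, and in 2 members in the lower direction (Tyms and Birc5), beside 11.6% of all genes. With only the libraries whose names begin with the letter D, a prefix whose meaning is not given, the medians were -0.01 for S phase and -0.17 for mitosis, and 0 members were called. The B and plasma cell markers summed to 5.28 to 11.5 CPM in WT water and 1.56 to 2.15 CPM in WT DSS. The myeloid markers summed to 4.38 to 9.77 CPM and 11.1 to 11.2 CPM, but they did not move as 1 list. Cd68 was lower in WT DSS without overlap (2.15 to 5.37 CPM in WT water, 1.42 to 1.94 CPM in WT DSS). Lyz2, Itgam, Csf1r and Adgre1 overlapped. The part of both lists in the member values was not tested.

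In KO epithelium no S phase or mitotic member passed the test after DSS. All KO DSS libraries carried the name prefix D and no KO water library did. Within these 2 groups DSS and the name prefix cannot be told apart. Of the S phase members 19 of 26 were fitted higher in KO DSS than in KO water (median log2 fold change 0.18), and of the mitotic members 17 of 19 were fitted lower (median -0.20). These are counts of fitted signs, and their difference between the phases was not tested. The median over all tested genes was -0.02. The edgeR test called 10 of 15127 genes (0.0661%) and 0 members. Its unadjusted p was under 0.05 in 2 S phase and 4 mitotic members. The count over all genes is not set beside these, so they are not read as a result. Without the library labelled KO water replicate 1 the counts were 19 of 26 higher (median 0.16) and 13 of 19 lower (median -0.14), and without KO water replicate 4 they were 17 of 26 higher (median 0.10) and 18 of 19 lower (median -0.42). The stem cell markers summed to 193 to 242 CPM in KO water and 177 to 186 CPM in KO DSS, and the 6 goblet markers to 12662 to 15477 CPM and 11547 to 12022 CPM. The sums of both lists did not overlap between the groups. Every single goblet marker overlapped, also Muc2, the largest of them (7098 to 11192 CPM in KO water, 7062 to 8187 CPM in KO DSS). Of the stem cell markers, Lgr5 (16.2 to 22.1 CPM, 11.9 to 12.9 CPM) and Axin2 (23.2 to 56.2 CPM, 18.6 to 23.1 CPM) were lower without overlap. Ascl2, Smoc2, Olfm4 and Cdca7 overlapped. The part of both lists in the member values was not tested.

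On the S phase side 8 of 9 licensing genes (median 0.32) and all 3 helicase activation genes (median 0.20) were fitted higher. Mcm2 is given by library above, and its log2 fold change was 0.39 (SE 0.21, edgeR adjusted p = 0.658). Ccne1, the cyclin E1 of S phase entry, was at 8.80, 7.87, 10.1 and 7.06 CPM in KO water and at 12.2, 10.6 and 12.5 CPM in KO DSS. The groups did not overlap, and the log2 fold change was 0.48 (SE 0.20, edgeR adjusted p = 0.562). Fen1 was at 1.76, 1.01, 1.07 and 0.588 CPM in KO water and at 3.03, 3.30 and 5.07 CPM in KO DSS. Its groups did not overlap either, at the low counts and with the antisense overlap named above (log2 fold change 1.77, SE 0.64, edgeR adjusted p = 0.494). DESeq2 with only the 2 groups called Fen1 higher (adjusted p = 0.0322), while the fit with the name prefix as a block turned it to -0.99 (SE 1.07). Groups did not overlap in 2 members in the higher direction, beside 4.6% of all genes, and in 0 members in the lower direction, beside 4.28%. The counts were the same without the library labelled KO water replicate 1, beside 7.25% and 6.47% of all genes. The log2 fold changes were then 2.08 for Fen1, 0.50 for Ccne1 and 0.34 for Mcm2, with edgeR adjusted p-values of 0.464, 0.562 and 0.710.

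On the mitotic side all 5 spindle and kinetochore genes (median -0.48) and both chromosome genes (median -0.52) were fitted lower in KO DSS. Cenpf, a large kinetochore protein, was at 71.1, 75.2, 63.9 and 31.5 CPM in KO water and at 41.9, 37.5 and 33.7 CPM in KO DSS. KO water replicate 4 was below all KO DSS libraries, and the other 3 were above them. The log2 fold change was -0.68 (SE 0.24, edgeR adjusted p = 0.481). Cenpe, the kinesin that moves chromosomes to the spindle equator, was at 47.4, 55.2, 58.0 and 28.0 CPM in KO water and at 34.1, 29.99 and 29.4 CPM in KO DSS, and it showed the same order of libraries (log2 fold change -0.60, SE 0.24, edgeR adjusted p = 0.523). Mki67 had a log2 fold change of -0.66 (SE 0.28, edgeR adjusted p = 0.562). When the library labelled KO water replicate 1 was left out, 4 of the 5 spindle and kinetochore genes were fitted lower (median -0.48), and the log2 fold changes were -0.59 for Cenpf, -0.60 for Cenpe and -0.66 for Mki67, with edgeR adjusted p-values of 0.544, 0.548 and 0.562.

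The mitotic calls depended on the water libraries. Without the 3 libraries of high mitochondrial share, edgeR called Cenpf (log2 fold change -0.88, SE 0.14, adjusted p = 0.0309) and Cenpe (-0.77, SE 0.13, adjusted p = 0.0417) lower, beside 0.0869% of all genes called lower. Also without the library labelled KO water replicate 1, 5 mitotic members were called lower (Cenpf, Cenpe, Kif11, Nusap1 and Mki67), beside 0.806% of all genes. These libraries were left out after their values had been seen, and KO water then had only replicates 2 and 3. With the name prefix as a block in the fit, where no prefix D library was in KO water, the median of the mitotic members was -0.17 and 0 were called. Cenpe and Mki67 turned to 0.11 (SE 0.38) and 0.25 (SE 0.43), values smaller than their errors.

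On water 1 of the 45 members passed the test between KO and WT, and that call was lost in 12 of the 14 fits that left out 1 library. This comparison asked what loss of Smad4 did to the division genes before injury. The edgeR test called 1276 of 15127 genes (8.44%), but with only the 2 groups in the fit it called 0 genes higher and 1 lower, and without WT water replicate 4, KO water replicate 2 or KO water replicate 3 at most 8 in either direction. Among the members it called Tk1, which was lower in KO with all 14 libraries. Tk1 lies at chr11:117676840-117687406 on the minus strand (mm9), and 1.60% of its exonic bases are shared with Afmid on the other strand. It was at 64.7, 55.8, 46.4 and 84.3 CPM in WT water and at 43.1, 43.7, 48.8 and 37.9 CPM in KO water. KO water replicate 3 was above WT water replicate 3, so the groups overlapped. The log2 fold change was -0.53 (SE 0.16, edgeR adjusted p = 0.0492). Without the library labelled KO water replicate 1 it was -0.53 (SE 0.18, adjusted p = 0.0737), and without WT water replicate 4, which held the highest value, -0.36 (SE 0.13, adjusted p = 0.143).

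Of all 26 S phase members 13 were fitted higher and 13 lower (median -0.01), beside a median of -0.01 over all genes. Without the library labelled KO water replicate 1, 14 were fitted higher (median 0.03). Gins2 was at 16.2, 13.1, 15.9 and 19.998 CPM in WT water and at 11.8, 12.2, 12.4 and 10.3 CPM in KO water. Its groups did not overlap (log2 fold change -0.48, SE 0.18, edgeR adjusted p = 0.0971). Mcm4, a helicase subunit, was at 31.3, 25.9, 28.4 and 9.62 CPM in WT water and at 36.2, 43.3, 56.1 and 21.1 CPM in KO water. Replicate 4 was the lowest library in both groups (log2 fold change 0.71, SE 0.32, edgeR adjusted p = 0.149). The log2 fold changes without the library labelled KO water replicate 1 were -0.48 for Gins2 and 0.75 for Mcm4, with edgeR adjusted p-values of 0.137 and 0.173.

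The mitotic members were fitted higher in KO water in 13 of 19 (median 0.17), and all 5 spindle and kinetochore genes were among them (median 0.50). The counts were the same without the library labelled KO water replicate 1, with medians of 0.13 and 0.42. The exceptions included 4 of the 5 mitotic kinases and partners (median -0.11). Plk1, which acts at mitotic entry and at the kinetochore, was at 185, 165, 162 and 190 CPM in WT water and at 167, 134, 101 and 98.0 CPM in KO water. Only the library labelled KO water replicate 1 reached into the WT range. The log2 fold change was -0.49 (SE 0.17, edgeR adjusted p = 0.0741). Without that library it was -0.66 (SE 0.16, adjusted p = 0.0312), beside 3.6% of all genes called lower, and DESeq2 over all 14 libraries also called it lower (adjusted p = 0.0369). Top2a had a log2 fold change of 0.56 (SE 0.22, edgeR adjusted p = 0.110) and Cenpf of 0.50 (SE 0.22, edgeR adjusted p = 0.136), and without the library labelled KO water replicate 1 they were 0.57 (edgeR adjusted p = 0.148) and 0.42 (edgeR adjusted p = 0.255). Groups did not overlap in 0 members in the higher direction, beside 5.18% of all genes, and in 1 member (Gins2) in the lower direction, beside 5.2%. With the library labelled KO water replicate 1 left out they did not overlap in 0 members in the higher direction, beside 7.26% of all genes, and in 2 (Gins2 and Plk1) in the lower direction, beside 7.66%.

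One library decided how many members were called on water. Without KO water replicate 4, edgeR called 5 S phase members (Pola1, Rrm2, Mcm4, Mcm6 and Rrm1) and 6 mitotic members higher in KO, beside 14.6% of all genes called higher. The mitotic members were Kif20a (log2 fold change 1.07, SE 0.23, adjusted p = 0.00528), Kif11 (0.89, SE 0.16, adjusted p = 0.00262), Top2a (0.79, SE 0.17, adjusted p = 0.00497), Cenpf (0.73, SE 0.15, adjusted p = 0.00387), Ccna2 and Tpx2. Kif11 is the motor that pushes spindle poles apart. It was at 44.2, 31.9, 36.2 and 28.6 CPM in WT water and at 53.1, 62.0, 78.8 and 20.7 CPM in KO water, so that replicates 2 and 3 and the library labelled KO water replicate 1 were above the WT range and replicate 4 was below it.

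KO water replicate 4 was also the library with the highest sums of T and NK, B and plasma and fibroblast markers and with a mitochondrial share of 21.4%, as given above. Their part in its low mitotic level was not tested. Across the genotypes, the 8 mature colonocyte markers summed to 3411 to 4530 CPM in WT water and 2200 to 3305 CPM in KO water. Of these markers only Car1 did not overlap between the groups (1170 to 2699 CPM, 813 to 1167 CPM). Slc26a3 was at 281 to 417 CPM in WT water and 293 to 459 CPM in KO water. The myeloid markers summed to 4.38 to 9.77 CPM and 10.3 to 14.4 CPM, and the fibroblast markers to 0.896 to 4.06 CPM and 2.98 to 24.8 CPM. Each single myeloid marker overlapped between the groups. The part of all these lists in the member values on water was not tested either. With all 3 libraries of high mitochondrial share left out, edgeR called Pola1 higher and Tk1 lower and 6 mitotic members higher (Kif20a, Kif11, Top2a, Cenpf, Mki67 and Cenpe), beside 9.12% of all genes called higher. Without these and the library labelled KO water replicate 1, 6 S phase and 7 mitotic members were called higher, beside 13.4% of all genes. Mki67 then had a log2 fold change of 1.07 (SE 0.21, adjusted p = 0.00485).

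The sign also turned between library name prefixes. Prefix MP held 1 library of each genotype on water, and the mitotic level was 5.81 in the WT library and 4.99 in the KO library. Prefix Z held 1 WT library at 5.30 and 2 libraries labelled KO at 5.94 and 5.92, 1 of which was the library labelled KO water replicate 1. With the prefix as a block, 8 of 19 mitotic members were fitted higher and 11 lower (median -0.06) and the S phase median was -0.17, and 0 members were called.

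**Figure D4:**
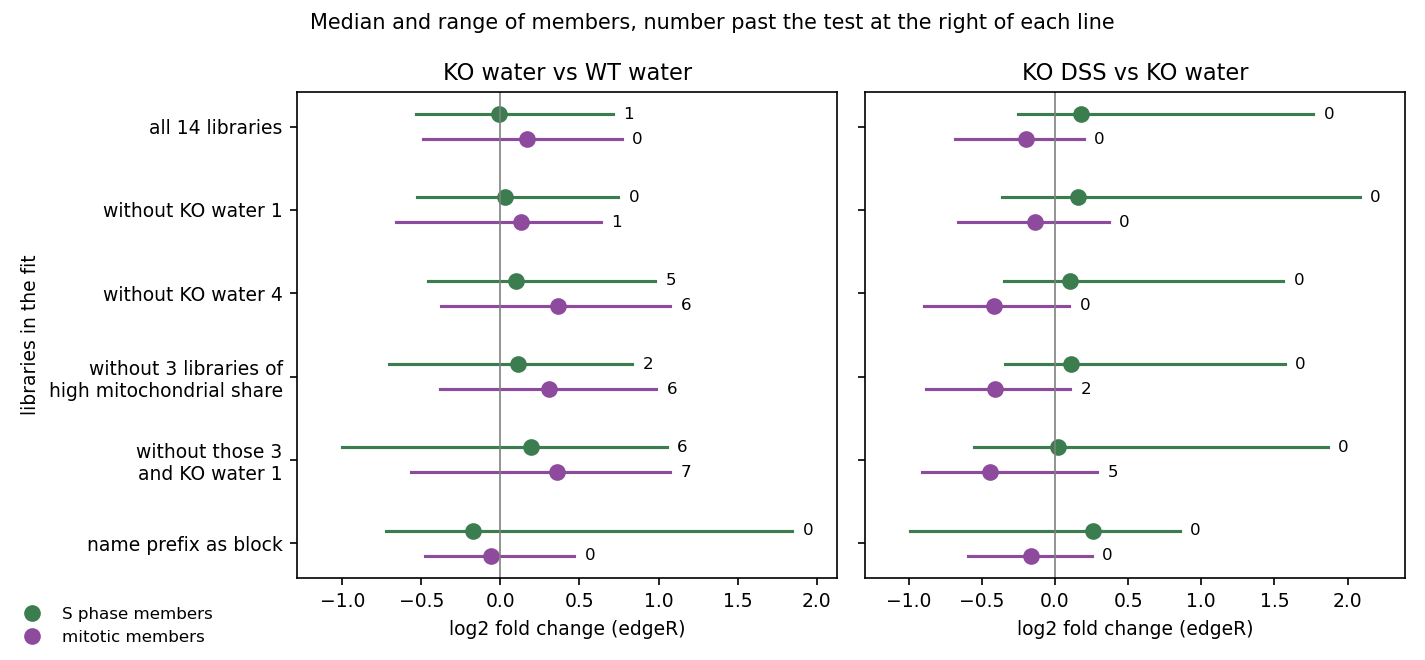
Dots give the median log2 fold change of the S phase (green) and mitotic (purple) members, lines their full range, and the number at the right how many were past the test (edgeR adjusted p below 0.05), for 6 choices of libraries or model. The mitotic median on water moves from 0.17 with all 14 libraries to 0.37 without KO water replicate 4 and to -0.06 with the name prefix as a block, while after DSS in KO it stays below 0.

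After DSS no member passed the test between KO and WT epithelium. This comparison shares the KO DSS libraries with KO DSS against KO water. The S phase members were fitted higher in KO in 21 of 26 (median log2 fold change 0.15), and the mitotic members were fitted lower in 14 of 19 (median -0.10), beside a median of -0.00 over all genes. The edgeR test called 2 of 15127 genes (0.0132%) and 0 members. Its unadjusted p was under 0.05 in 1 S phase member and 0 mitotic members, with no count over all genes set beside them. Within prefix D, which holds 2 WT and 3 KO libraries, 25 of 26 S phase members were fitted higher (median 0.27) and 11 of 19 mitotic members lower (median -0.04), and 0 members were called.

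Tyms, the thymidylate synthase, was at 36.8, 37.7 and 35.8 CPM in WT DSS and at 54.6, 38.7 and 48.7 CPM in KO DSS. Its groups did not overlap (log2 fold change 0.36, SE 0.16, edgeR adjusted p = 0.999). Ccne2, the cyclin E2, was at 5.79, 5.44 and 5.22 CPM in WT DSS and at 10.9, 5.91 and 7.46 CPM in KO DSS (log2 fold change 0.56, SE 0.33, edgeR adjusted p = 0.999), and Rfc3, a subunit of the clamp loader, was at 15.8 to 22.9 CPM in WT DSS and 21.8 to 29.3 CPM in KO DSS (log2 fold change 0.34, SE 0.23, edgeR adjusted p = 0.999). Groups did not overlap in 3 members in the higher direction (Mcm4, Tyms and Ccne2), beside 10.4% of all genes, and in 0 members in the lower direction, beside 11.4%.

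On the mitotic side Mki67 had a log2 fold change of -0.42 (95% interval -1.001 to 0.15), Cenpe of -0.24 (-0.73 to 0.26) and Cdk1 of 0.20 (-0.22 to 0.61), each with an edgeR adjusted p of 0.999. The value of Cdk1 rested on KO DSS replicate 1, without which it was -0.044. The intervals leave room for changes of these genes in either direction. Of the 13 marker lists 8 did not overlap between WT DSS and KO DSS. The fibroblast markers summed to 0.276 to 1.89 CPM in WT DSS and 7.21 to 13.0 CPM in KO DSS. The B and plasma cell markers summed to 1.56 to 2.15 CPM and 2.95 to 4.67 CPM. The 6 stem cell markers summed to 94.7 to 146 CPM and 177 to 186 CPM, but they did not move as 1 list. Smoc2 (19.5 to 32.4 CPM in WT DSS, 73.2 to 81.2 CPM in KO DSS), Lgr5 and Olfm4 were higher without overlap. Ascl2 was lower without overlap (4.25 to 6.86 CPM, 2.51 to 3.70 CPM), and Axin2 and Cdca7 overlapped. The lists that were lower in KO DSS were the goblet markers (14079 to 15599 CPM in WT DSS, 11547 to 12022 CPM in KO DSS), the epithelial markers (17322 to 18044 CPM, 15894 to 16834 CPM), the tuft cell markers (22.3 to 26.8 CPM, 19.6 to 20.4 CPM), and the myeloid and endothelial markers. Their part in the member values was not tested.

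**Figure D5:**
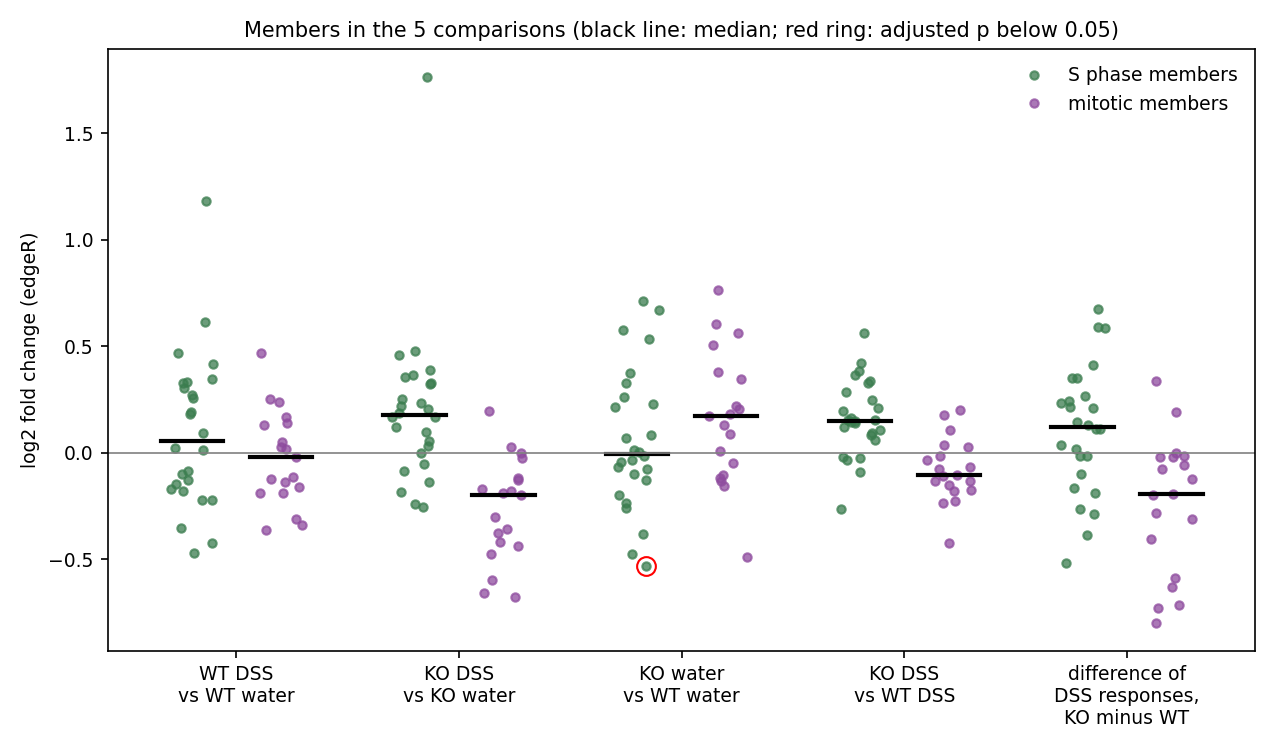
Each point is a member, the y axis gives its log2 fold change from edgeR in the comparison named on the x axis, and black lines give medians. The ring marks Tk1, the member with an adjusted p below 0.05 (0.0492). In KO DSS against KO water the medians lie at 0.18 for S phase and -0.20 for mitosis.

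The response to DSS was then compared between genotypes in the same model, as the difference of the log2 fold changes, KO minus WT. It shares its water and DSS libraries with the comparisons above and adds no independent libraries. The S phase members were on the positive side in 17 of 26 (median 0.12), and the mitotic members on the negative side in 17 of 19 (median -0.19); without the library labelled KO water replicate 1 the counts were 14 of 26 and 14 of 19, with medians of 0.07 and -0.11. The signs of the 2 phases were not compared by a test. The edgeR test called 1 of 15127 genes (0.00661%) and 0 members. Its unadjusted p was under 0.05 in 2 S phase members and 1 mitotic member, with no count over all genes set beside them. All 5 spindle and kinetochore genes were on the negative side (median -0.59).

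Tk1, Gins2 and Tyms had the lowest p of the S phase members. The difference was 0.59 (SE 0.24, edgeR adjusted p = 0.643) for Tk1, 0.67 (SE 0.28, adjusted p = 0.643) for Gins2 and 0.41 (SE 0.22, adjusted p = 0.656) for Tyms. Among the mitotic members it was -0.73 (SE 0.33, edgeR adjusted p = 0.645) for Cenpf, -0.80 (SE 0.39, adjusted p = 0.645) for Mki67 and -0.63 (SE 0.34, adjusted p = 0.663) for Top2a. The differences without the library labelled KO water replicate 1 were 0.59 for Tk1, 0.68 for Gins2, 0.49 for Tyms, -0.64 for Cenpf, -0.80 for Mki67 and -0.63 for Top2a, with edgeR adjusted p-values of 0.579 to 0.647. Without the 3 libraries of high mitochondrial share and the library labelled KO water replicate 1, 4 mitotic members were called negative (Kif11, Cenpf, Cenpe and Mki67, with Mki67 at -1.49, SE 0.27, adjusted p = 0.0206), beside 2.68% of all genes. The S phase median was then -0.10, on the other side of 0.

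The fitted signs were also counted in further genes of both phases, which are no members. These genes were read in the same libraries as the members, and their number does not add independent evidence. Of 41 other S phase genes tested, 20 were fitted higher and 21 lower in KO DSS against KO water (median -0.02), and 0 were called. Of 51 other mitotic genes, 49 were fitted lower (median -0.31) and 0 were called; Ube2c, the ubiquitin-conjugating enzyme of the APC/C, had the lowest p, at 88.2, 82.1, 76.1 and 69.7 CPM in KO water and 37.0, 49.5 and 49.99 CPM in KO DSS (log2 fold change -0.80, SE 0.17, edgeR adjusted p = 0.182). Every KO DSS library was below every KO water library in Ube2c. In the fit without the library labelled KO water replicate 1, 17 of the 41 S phase genes were fitted higher and 48 of the 51 mitotic genes lower, and Ube2c was at -0.74 (SE 0.18, edgeR adjusted p = 0.317). In WT DSS against WT water 38 of the 51 were fitted lower (median -0.17), and 0 were called.

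On water, 2 of the 41 other S phase genes were called higher in KO and 1 lower, beside the 8.44% of all genes called. Hells, a chromatin remodeler that maintains DNA methylation, was at 15.02, 11.4, 14.2 and 14.1 CPM in WT and at 23.8, 39.9, 48.4 and 18.7 CPM in KO, with no overlap (log2 fold change 1.25, SE 0.26, edgeR adjusted p = 0.0235). E2f7, an atypical E2F that represses the G1/S genes, was at 3.06 to 4.66 CPM in WT and 4.54 to 12.0 CPM in KO (log2 fold change 0.96, SE 0.29, edgeR adjusted p = 0.0489), and the clamp loader subunit Rfc2 was lower, at 47.6 to 114 CPM in WT and 35.4 to 57.7 CPM in KO (log2 fold change -0.74, SE 0.22, edgeR adjusted p = 0.0474). Of the 51 other mitotic genes 1 was called, the condensin subunit Smc2, which was higher in KO (19.2 to 30.8 CPM in WT, 26.2 to 64.6 CPM in KO, log2 fold change 0.99, SE 0.24, edgeR adjusted p = 0.0320). In the fit without the library labelled KO water replicate 1, Hells (1.38, edgeR adjusted p = 0.0154) and Smc2 (1.04, edgeR adjusted p = 0.0348) were still called, and E2f7 (0.98, edgeR adjusted p = 0.0649) and Rfc2 (-0.75, edgeR adjusted p = 0.0679) were not, while Orc1 (0.68) was called higher and Spc24 (-0.75) lower. Of 21 regulators of G1 and of the RB, E2F and DREAM complexes 0 were called in any of the comparisons. Ccnd1, the cyclin D1 of G1, had the lowest p of them in WT DSS against WT water, at 72.3, 49.3, 53.3 and 34.3 CPM in WT water and at 140.5, 99.8 and 106 CPM in WT DSS (log2 fold change 1.14, SE 0.23, edgeR adjusted p = 0.114), and its groups did not overlap.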

How the data were processed

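The authors aligned paired-end reads to mm9 with HISAT2 and made gene counts with featureCounts. The deposited table holds raw counts of 37680 genes in 14 libraries, of which 14001 genes had no count. Strand setting and annotation were not given in the sources used here. Libraries were grouped by the labels as WT or KO on water or DSS. From the counts, edgeR 4.0.16 (R 4.3.3, TMM, glmQLFit and glmQLFTest, Benjamini-Hochberg adjustment over all genes, threshold 0.05) was run on the 15127 genes that reached 10 counts in 3 or more libraries, in 1 model of 4 groups. The study used pairwise DESeq2, which was run as an alternative (DESeq2 1.42.0) with other size factors, filters, blocks and left-out libraries. Its figure legends count 4 replicates for WT on water and 3 for every other group. The fit here held 4 KO water libraries, and the legends do not say which was not used. A count of 0 was kept as such, and the pseudocount of the levels was 1. The code was tested on simulated data. Members and lists were chosen with earlier results of these data known. Values were named by rule: Mki67, Top2a, Cdk1, Pcna, Mcm2 and Rrm2, any called member, and the 3 S phase and 3 mitotic members of lowest p in each comparison; of the other lists, called genes or those of lowest p. Libraries of one replicate number did not in general deviate together (correlations -0.12 to 0.45 over 19 pairs, median -0.03), so the number was not taken as a pairing. The value of 0.45 was between WT water replicate 4 and KO water replicate 4, both of prefix MP. It was above the highest value of 0.31 over 54 pairs of unlike numbers. No libraries were identical. Promoter windows are from RefSeq (GRCm38.p6) and gene coordinates from mm9 gene models. 1 listed gene, Ticrr, was not matched to the count table. Depth per library limits low genes such as Fen1, and no correction was made for the antisense overlaps. Marker lists of the epithelium and of other cell types were summed in CPM.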

Additional observations from a re-analysis of the deposited data

Results flagged for a closer look

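Of 46 group sets of 4 libraries tested for a library apart from its group, 3 had a library whose gap to its nearest neighbour, divided by the range of the group, was above Dixon's critical value for 4 libraries; chance flags about 1 group in 20. The mitotic level of KO water replicate 4 was 4.99, with the other KO water libraries at 5.92 to 6.03 and a gap of 0.892 of the range. Ccne1 in WT water replicate 2 was at 6.47 CPM, with the others up to 10.4 CPM. Cenpe in WT water replicate 4 was at 60.3 CPM, with the others at 34.2 to 38.6 CPM. The DSS groups had 3 libraries and were not tested in this way.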

How the results depend on the processing

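Among alternatives that left out no single library, 21 of the summary values moved and 211 did not, and of the values of single named genes 17 gained a call, 6 lost one and 3 changed sign. Most of these results had no call to lose, so the unchanged ones say little about stability, and the 1 member called, Tk1, lost its call in 12 of the 14 fits that left out 1 library and with only the 2 groups. The replicate block, which pairs libraries by number only, called 2 S phase members on water (Tk1 and Mcm4, edgeR adjusted p = 0.00897 for Mcm4); it is no evidence of pairing, and it raised the calls over all genes in that comparison to 1586 higher and 1391 lower. On water S phase calls were 0 with only the 2 groups in edgeR or DESeq2 (also without the library labelled KO water replicate 1) and with the name prefix block, 2 without the 3 libraries of high mitochondrial share and 6 also without the library labelled KO water replicate 1. Mitotic calls on water were 1 (Plk1) in DESeq2 over all libraries and in DESeq2 with 2 groups without the library labelled KO water replicate 1, 6 without the 3 libraries of high mitochondrial share, and 7 also without the library labelled KO water replicate 1. For KO DSS against KO water, S phase calls were 1 (Fen1) in DESeq2 with 2 groups, with and without that library, and mitotic calls were 2 and 5 in the same 2 selections; for the difference of the responses they were 4 in the second. The name prefix block moved the S phase median of that difference to 0.40. It turned Fen1 (-0.99, SE 1.07), Cenpe (0.11, SE 0.38) and Mki67 (0.25, SE 0.43) in KO DSS against KO water, each by less than its error from 0. Leaving out 1 library at a time moved Cdk1 in KO DSS against WT DSS between -0.044 (without KO DSS replicate 1) and 0.38 (without KO DSS replicate 2). With mitochondrial genes left out of library sizes, the S phase level was 4.71 in WT water and 4.98 in KO DSS, and the mitotic level 5.69 in KO DSS. Over all genes on water, calls were 731 higher and 545 lower in the reported fit, 0 and 1 with only the 2 groups in edgeR, 406 and 390 in DESeq2 with 2 groups, 1450 and 1209 in DESeq2 over all libraries, 2198 and 1906 without KO water replicate 4 and at most 8 in either direction without WT water replicate 4, KO water replicate 2 or KO water replicate 3. In WT DSS against WT water DESeq2 with 2 groups called 825 and 964, edgeR with no filter on low counts 78 and 60, and edgeR without KO water replicate 4 348 and 189, beside 0 in the reported fit. The selections without the libraries of high mitochondrial share were chosen after seeing the data. Leaving out 1 library at a time gave 0 to 5 S phase and 0 to 6 mitotic calls on water and 0 calls in the other comparisons. The cause of these changes was not tested. Low counts limit Fen1, and 3 to 4 libraries a group limit every test.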
